A study of Mus musculus with 19 samples.

Results

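Bacterial sensing by the small intestinal crypt was examined through 9 genes, the lipopolysaccharide co-receptors Cd14 and Ly96, the carrier Lbp, the Toll-like receptors Tlr2, Tlr3, Tlr4, and Tlr5, the adaptor Myd88, and the cytosolic sensor Nod2, of 55487 genes in the deposited tables. The 9 genes were listed by symbol and matched to their Ensembl gene IDs. The list was chosen by name with results from the expected counts of the same mice across the same 4 groups in view, and no threshold on those counts was given. The levels, fold changes, and adjusted p values of the 9 genes are therefore a description of these mice and support nothing beyond them.

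RNA was sequenced from crypts of the small intestine, its most distal part left out, of 19 C57BL/6 mice of both sexes, 1 library per mouse, aged 10 to 16 weeks. Mice either ate ad libitum, called fed below (5 Nt+/+ and 4 Nt-/-), or had only water for 48 hours, called fasted (5 of each genotype). Nt-/- mice lack neurotensin, a gut peptide of enteroendocrine cells that is released after fat intake. The study names an Lgr5-EGFP-IRES-CreERT2 allele, which carries a Cre, but does not describe the deletion as dependent on it. Nothing else that would limit the deletion to a tissue is named. The study describes its mice of both genotypes as carrying Lgr5-EGFP, a reporter of intestinal stem cells, and the labels of these samples do not name it. Nts, the gene for neurotensin, was at 7.82 ± 0.773 CPM (mean ± SD, counts scaled to library size; n = 5) in fed Nt+/+ mice and 0.314 ± 0.29 CPM (n = 4) in fed Nt-/- mice. Fasted Nt+/+ mice had 5.42 ± 0.267 CPM (n = 5) and fasted Nt-/- mice 0.433 ± 0.23 CPM (n = 5). Fasted Nt+/+ mouse 5 carries a title and a genotype label that contradict each other. Its title decided its group, and its Nts level of 5.43 CPM lay within the range of the fasted Nt+/+ mice. Counts per mouse ranged from 9059418 to 35068669 (median, 18541770). Markers of crypt epithelium were all detected, and their summed level was 6717 CPM or more in every mouse.

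Toll-like receptors are membrane proteins that bind conserved parts of microbes. TLR4 binds lipopolysaccharide of gram-negative bacteria, which LBP carries and CD14 hands over to the pair of TLR4 and MD-2, the protein encoded by Ly96. TLR2 binds bacterial lipoproteins together with TLR1 or TLR6, TLR5 binds flagellin, and TLR3 binds double-stranded RNA inside endosomes. All of these except TLR3 signal through MyD88 to NF-kB, and NOD2 reaches the same factor from the cytosol after binding muramyl dipeptide. In the gut these genes are used, to differing degrees, by epithelial cells and by macrophages and other immune cells.

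Of the 9 genes, 5 were matched in a RefSeq promoter table (GRCm38.p6). The 2 sequences shown are the stretches free of annotated exons upstream of Tlr2 and Tlr5, receptors whose levels were lower and higher in fasted Nt+/+ mice, each read 5′ to 3′ on the strand of its gene.
Tlr2, chr3:83841768-83841858, minus strand, positions -250 to -160 from the RefSeq start: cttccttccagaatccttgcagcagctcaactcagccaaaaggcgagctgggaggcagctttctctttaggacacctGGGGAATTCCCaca
Tlr5, chr1:182954538-182954787, plus strand, positions -250 to -1: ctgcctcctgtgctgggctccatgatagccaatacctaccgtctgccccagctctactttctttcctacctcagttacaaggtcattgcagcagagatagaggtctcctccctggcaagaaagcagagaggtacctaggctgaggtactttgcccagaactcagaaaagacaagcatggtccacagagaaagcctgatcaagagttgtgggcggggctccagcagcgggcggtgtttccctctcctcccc
Capitals mark the NF-kB matches of Tlr2, which overlap each other, on the plus strand of the gene at positions -173 to -164 and -172 to -163 and on the other strand at -172 to -163. Matches to the NF-kB motif were found in 7.3% of 32851 promoters of the same length. The Tlr5 stretch held no match to the NF-kB motif, to GAS (TTCNNNGAA, in 7.0% of promoters), AP-1 (TGANTCA, 6.7%), or the TATA box (TATAAA, 12.4%). Over all 5 matched promoters NF-kB matches were found in 2, Tlr2 and Tlr3, GAS and TATA box matches in 1, Myd88, and AP-1 matches in 0; the Nod2 promoter, like that of Tlr5, held none. Both strands were searched, and a match describes letters only. Positions of Tlr2 count from the RefSeq start at 83841608, whereas the gene as annotated in GENCODE M21 begins upstream of it, at 83841767. Of the 250 bases before the RefSeq start, 159 are annotated Tlr2 exon, and the stretch shown ends next to that GENCODE start.

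Levels that can be set beside each other between genes are those per transcript length, given as TPM (transcripts scaled to length and depth, as deposited). Over all 19 mice Tlr3 was at 14.5 ± 3.08 TPM and Myd88 at 13.6 ± 1.83 TPM, a difference smaller than the spread between mice. Their order changed with diet in Nt+/+ mice. Tlr3 was above Myd88 in every fed mouse (16.6 ± 1.66 and 12.6 ± 1.16 TPM, n = 5). It was below Myd88 in every fasted mouse (11.6 ± 2.07 and 14.4 ± 1.78 TPM, n = 5). In Nt-/- mice the order varied between mice under both diets. Over all 19 mice Ly96, at 4.51 ± 1.40 TPM, and Cd14, at 3.36 ± 1.24 TPM, came next and also overlapped. Tlr2 was at 1.06 ± 0.489 TPM, Tlr5 at 0.83 ± 0.33 TPM, and Nod2 at 0.685 ± 0.283 TPM, and neighbors in this order did not differ beyond their SD. Lbp, at 0.336 ± 0.20 TPM, and Tlr4, at 0.103 ± 0.0907 TPM, were lowest. Tlr4 had between 0 and 17 counts per mouse and did not pass the filter on low counts, so 8 of the 9 genes were tested.

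**Figure D1:**
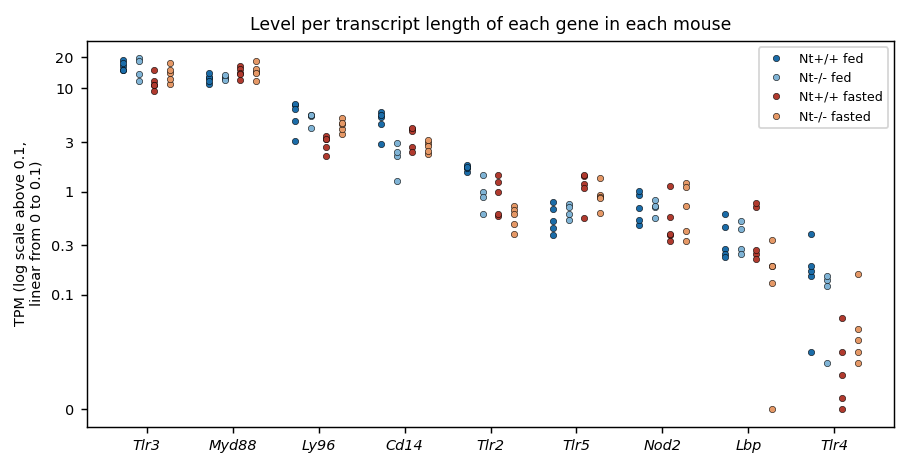
Level per transcript length of the 9 genes in each of 19 mice (points, colored by group), in TPM on an axis that is logarithmic above 0.1 and linear from 0 to 0.1. Tlr3 and Myd88 lie between 9.42 and 19.59 TPM in every mouse, whereas Tlr4 reaches at most 0.39 TPM.

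The effect of fasting in Nt+/+ mice was examined first. Ly96, Tlr2, and Tlr3 were lower and Tlr5 was higher in fasted than in fed Nt+/+ mice at an adjusted p under 0.05 (edgeR's quasi-likelihood test, adjusted over 17875 genes). Thus 4 of 8 genes tested passed, beside 21.6% of all genes tested (11.2% higher and 10.4% lower). In Nt-/- mice the same comparison passed for 1 of 8, Tlr3, which was lower, beside 25.2% of all genes (12.5% higher and 12.6% lower). Over 9 alternative settings 3 to 5 of the genes passed in Nt+/+ mice and 1 to 3 in Nt-/- mice. Genes called in all ranged from 3077 to 5484 and from 3670 to 5672, against 3862 and 4499 in the main fit. In Nt+/+ mice Myd88 passed, higher, under 4 settings, and Tlr2 did not pass under 4. In Nt-/- mice Tlr2, lower, and Myd88, higher, passed beside Tlr3 under 2 settings, those with a block for replicate number. The setting of 10 counts in every mouse left Lbp untested. The median log2 fold change of the 8 genes was -0.38 in Nt+/+ mice and -0.04 in Nt-/- mice, beside -0.01 and -0.02 over all genes tested. The difference between the effects of fasting in the 2 genotypes passed for none of the 8 genes and for 0% of all genes by edgeR or by DESeq2. At an unadjusted p under 0.05 it held for 2 of the 8 genes, Cd14 and Ly96, beside 2.71% of all genes. At the same unadjusted threshold 5 of the 8 genes passed for fasting in Nt+/+ mice and 3 in Nt-/- mice, beside 34.1% and 36.5% of all genes.

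Comparing genotypes, no member of the 8 passed between Nt-/- and Nt+/+ mice under either diet with edgeR, beside 0.00559% of all genes (1 gene, Nts) in each diet. The unadjusted p was under 0.05 for 2 of the 8 genes in fed mice, Cd14 and Tlr2, beside 1.67% of all genes, and for 4 of the 8 in fasted mice, Ly96, Tlr2, Tlr3, and Lbp, beside 9.14%. DESeq2 called Cd14 in fed mice and no other of the 8 genes in either diet.

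**Figure D2:**
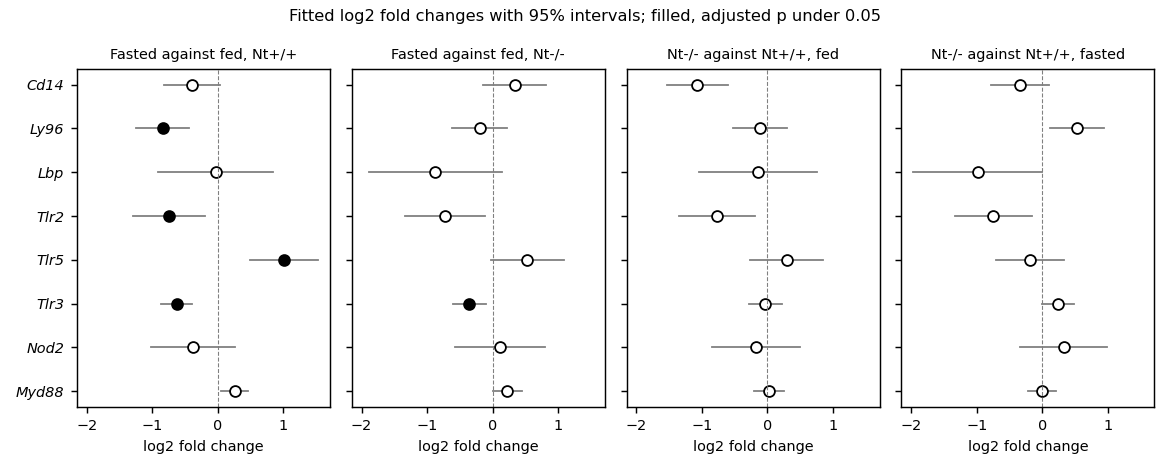
Fitted log2 fold changes of the 8 tested genes (points) with 95% intervals (lines) in 4 comparisons; filled points had an adjusted p under 0.05. Filled points are Ly96, Tlr2, Tlr3, and Tlr5 in the comparison of fasted with fed Nt+/+ mice and Tlr3 in that of Nt-/- mice, and Cd14 lies lowest among fed mice.

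Cd14 (ENSMUSG00000051439; GRCm38 chr18:36725067-36726798, minus strand), the co-receptor that hands lipopolysaccharide to TLR4 and MD-2, was at 4.37, 6.98, 7.27, 5.53, and 6.62 CPM in the fed Nt+/+ mice. In fed Nt-/- mice it was at 3.24, 1.68, 3.18, and 3.57 CPM. Every Nt-/- mouse thus lay below every Nt+/+ mouse, a separation found in the same direction for 0.336% of all genes tested (0.358% in the other). The means were 2.92 ± 0.844 CPM (n = 4) and 6.15 ± 1.20 CPM (n = 5), a log2 fold change of -1.07 (SE, 0.23). In order of edgeR's p value Cd14 was number 2 of the 17875 genes. The adjusted p was 0.98 with edgeR and 0.0175 with DESeq2, so the call depended on the tool.

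In the fasted groups Cd14 was at 5.50, 3.55, 5.30, 3.03, and 5.99 CPM in Nt+/+ mice and at 3.58, 3.40, 3.87, 4.24, and 3.43 CPM in Nt-/- mice. These groups overlapped, with 2 of the Nt+/+ mice inside or below the range of the Nt-/- mice. The fitted log2 fold change between genotypes was -0.34 (SE, 0.21; edgeR adjusted p = 0.69). Within a genotype, the log2 fold change of fasted against fed mice was -0.39 (SE, 0.21; edgeR adjusted p = 0.19) in Nt+/+ mice and 0.34 (SE, 0.23; edgeR adjusted p = 0.31) in Nt-/- mice, and groups overlapped in both. The difference between the 2 effects was 0.73 (95% interval, 0.08 to 1.38; edgeR adjusted p = 1.00).

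Ly96 (ENSMUSG00000025779; chr1:16688051-16709611, plus strand), which encodes MD-2, the subunit that holds lipopolysaccharide beside TLR4, was at 2.54, 3.07, 1.52, 3.20, and 2.80 CPM in fed Nt+/+ mice. After fasting it was at 1.68, 1.57, 1.08, 1.26, and 1.79 CPM in Nt+/+ mice, so that only fed mouse 3 lay inside the range of the fasted group. This was a log2 fold change of -0.84 (SE, 0.19; edgeR adjusted p = 0.00409), from 2.63 ± 0.668 to 1.48 ± 0.298 CPM.
In Nt-/- mice Ly96 was at 2.27, 2.49, 2.79, and 2.24 CPM when fed and at 2.03, 2.27, 1.97, 2.07, and 2.32 CPM when fasted, and these groups overlapped (log2 fold change, -0.20; SE, 0.20; edgeR adjusted p = 0.52). Among fasted mice every Nt-/- mouse lay above every Nt+/+ mouse, as was so for 0.94% of all genes tested, with a log2 fold change of 0.53 (SE, 0.20; edgeR adjusted p = 0.40). The difference between the effects of fasting was 0.64 (95% interval, 0.06 to 1.22; edgeR adjusted p = 1.00). These are 20 to 77 counts per mouse.

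Tlr4 (ENSMUSG00000039005; chr4:66827584-66930284, plus strand), the lipopolysaccharide receptor itself, had 13, 17, 1, 3, and 13 counts in fed Nt+/+ mice and 7, 7, 3, and 5 in fed Nt-/- mice. It had 5, 2, 1, 2, and 0 counts in fasted Nt+/+ mice and 4, 2, 2, 2, and 3 in fasted Nt-/- mice. The groups overlapped in each comparison, and most fasted mice were at or near 3 counts. With no filter on low counts, the fitted log2 fold change in fasted Nt+/+ mice was -1.93 (edgeR adjusted p = 0.0435).

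Lbp (ENSMUSG00000016024; chr2:158306493-158332852, plus strand), the carrier of lipopolysaccharide, had 0 to 17 counts per mouse. It was at 0.144, 0.489, 0.991, 0.863, and 0.387 CPM in fed Nt+/+ mice and 0.443, 0.433, 0.482, and 0.692 CPM in fed Nt-/- mice. The fasted values were 0.579, 0.409, 0.617, 0.457, and 0.672 CPM in Nt+/+ and 0.32, 0, 0.405, 0.197, and 0.317 CPM in Nt-/-. Fasted Nt-/- mice lay below both fed Nt-/- mice (so for 10.8% of all genes) and fasted Nt+/+ mice (0.615%) without overlap (21.3% and 1.56% in either direction), but at these counts neither fitted difference passed. The log2 fold change of fasted Nt-/- against fasted Nt+/+ mice was -0.99 (SE, 0.47; edgeR adjusted p = 0.54), and that of fasted against fed Nt-/- mice was -0.87 (SE, 0.49; edgeR adjusted p = 0.21).

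**Figure D3:**
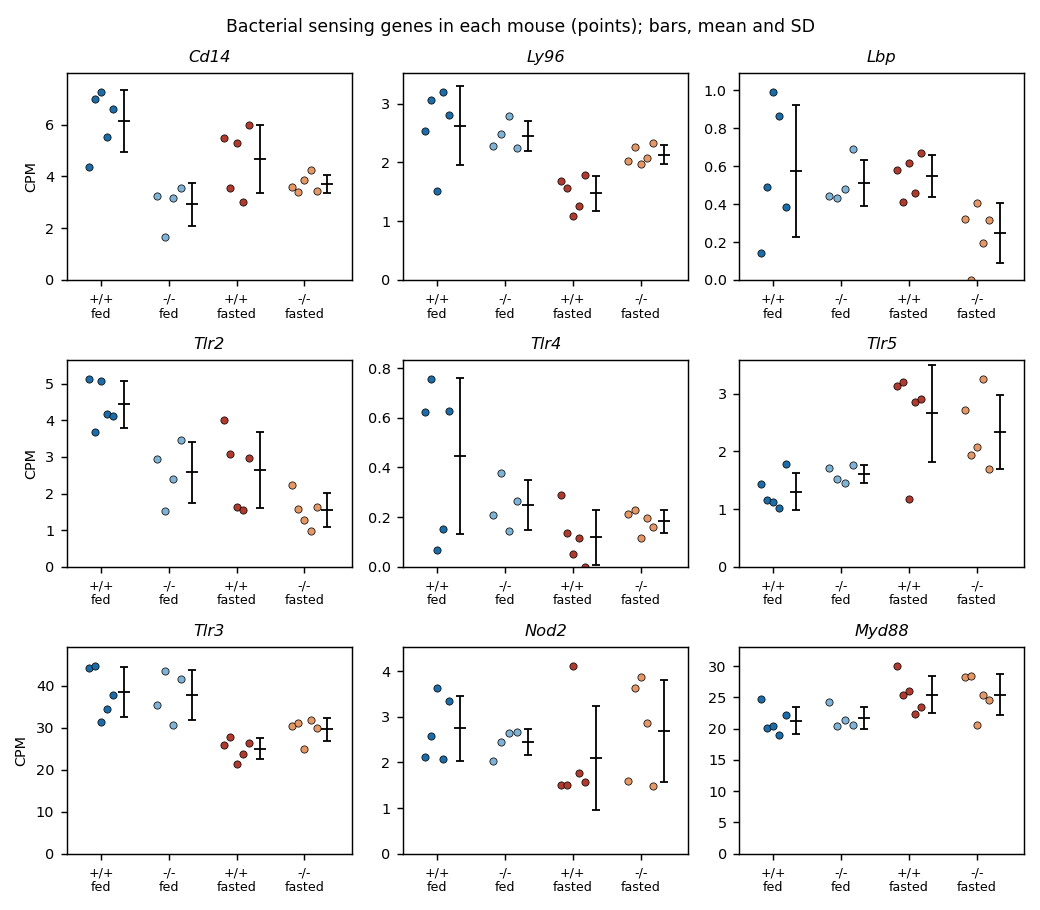
CPM of each of the 9 genes in each mouse (points) by genotype and diet, with the mean and SD of each group (bars); each panel has its own axis from 0. Fed Nt-/- mice lie between 1.68 and 3.57 CPM of Cd14, below the fed Nt+/+ mice, and fasted Nt+/+ mice lie between 21.3 and 27.7 CPM of Tlr3, below all fed Nt+/+ mice.

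Tlr2 (ENSMUSG00000027995; chr3:83836272-83841767, minus strand), the lipoprotein receptor, was at 5.13, 3.69, 5.09, 4.16, and 4.11 CPM in fed Nt+/+ mice and at 4.00, 3.07, 1.65, 1.54, and 2.97 CPM in fasted Nt+/+ mice. Of the 5 fasted mice, 4 lay below all fed mice. The change was -0.75 on the log2 scale (SE, 0.26; edgeR adjusted p = 0.0466). This call was held narrowly, since it passed in only 7 of 19 fits that each left out 1 mouse.
In Nt-/- mice Tlr2 was at 2.95, 1.52, 2.41, and 3.46 CPM when fed and 2.24, 1.59, 1.27, 0.986, and 1.64 CPM when fasted, with overlap and a log2 fold change of -0.72 (SE, 0.29; edgeR adjusted p = 0.0765), which passed under 2 of the 9 alternative settings. The difference between the 2 effects of fasting was 0.03 (95% interval, -0.83 to 0.88). Fed Nt-/- mice all lay below fed Nt+/+ mice in Tlr2, as they did in Cd14, with a log2 fold change of -0.77 (SE, 0.28; edgeR adjusted p = 1.00). In fasted mice the genotypes overlapped, and the log2 fold change was -0.75 (SE, 0.28; edgeR adjusted p = 0.40). Cd14 and Tlr2 were thus the 2 genes of the 8 whose fed groups did not overlap between genotypes, beside 0.694% of all genes tested.

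Tlr5 (ENSMUSG00000079164; chr1:182954788-182976044, plus strand), the flagellin receptor, was the receptor that rose. It was at 1.44, 1.16, 1.12, 1.02, and 1.79 CPM in fed and 3.13, 3.21, 1.18, 2.86, and 2.91 CPM in fasted Nt+/+ mice, so that 4 of 5 fasted mice lay above all fed mice and fasted mouse 3 lay among them. The fold change was 2.02, or 1.01 on the log2 scale (SE, 0.25; edgeR adjusted p = 0.00665), and passed in all 19 fits that left out 1 mouse each.
Fed Nt-/- mice were at 1.71, 1.52, 1.44, and 1.76 CPM of Tlr5 and fasted Nt-/- mice at 2.72, 1.93, 2.08, 3.26, and 1.69 CPM, with 4 of 5 fasted mice above all fed mice. The log2 fold change was 0.53 (SE, 0.27; edgeR adjusted p = 0.16), and the difference from the effect in Nt+/+ mice was -0.49 (95% interval, -1.24 to 0.27). Genotypes overlapped under both diets.

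Tlr3 (ENSMUSG00000031639; chr8:45395665-45411080, minus strand), the endosomal receptor for double-stranded RNA and the most abundant receptor here, was at 44.1, 44.7, 31.4, 34.3, and 37.7 CPM in fed Nt+/+ mice. In fasted Nt+/+ mice it was at 25.9, 27.7, 21.3, 23.6, and 26.3 CPM, below all fed mice, as was so in this direction for 6.97% of all genes (7.63% were above, and 14.6% did not overlap in either direction). This gave a log2 fold change of -0.63 (SE, 0.11; edgeR adjusted p = 0.000587).
In Nt-/- mice Tlr3 was at 35.4, 43.4, 30.5, and 41.5 CPM when fed and 30.3, 31.1, 24.8, 31.9, and 29.8 CPM when fasted, with 3 of 5 fasted mice below all fed mice. The log2 fold change was -0.35 (SE, 0.12; edgeR adjusted p = 0.0355), which did not pass without fed mouse 2 (adjusted p = 0.132), fed mouse 4 (0.105), fasted mouse 3 (0.0942), or fasted mouse 5 (0.0555). The difference between the effects in the 2 genotypes was 0.27 (95% interval, -0.07 to 0.62; edgeR adjusted p = 1.00). Of the exon bases of Tlr3, 381 of 5207 are shared with the antisense gene Gm45542, which had 0 to 21.08 counts per mouse. The strand setting of the counting is not given in the sources used here, so reads in these bases cannot be told apart.

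Nod2 (ENSMUSG00000055994; chr8:88647315-88688474, plus strand), the muramyl dipeptide sensor, passed no test. It was at 2.11, 2.58, 3.63, 2.08, and 3.33 CPM in fed Nt+/+ mice and 2.04, 2.44, 2.65, and 2.66 CPM in fed Nt-/- mice. The fasted values were 1.51, 1.50, 4.12, 1.77, and 1.57 CPM in Nt+/+ and 1.60, 3.63, 3.87, 2.86, and 1.48 CPM in Nt-/-. Apart from mouse 3, the fasted Nt+/+ mice lay below all fed Nt+/+ mice, and the log2 fold change was -0.38 (95% interval, -1.02 to 0.27; edgeR adjusted p = 0.42).

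Myd88 (ENSMUSG00000032508; chr9:119335934-119341411, minus strand), the adaptor shared by most of these receptors, was at 24.7, 20.2, 20.5, 19.03, and 22.1 CPM in fed and 30.1, 25.4, 26.1, 22.3, and 23.4 CPM in fasted Nt+/+ mice. In Nt-/- mice it was at 24.3, 20.5, 21.4, and 20.6 CPM when fed and 28.2, 28.5, 20.6, 25.4, and 24.6 CPM when fasted. Groups overlapped in each genotype, with 3 of 5 fasted Nt+/+ mice and 4 of 5 fasted Nt-/- mice above all fed mice of their genotype. The log2 fold change was 0.26 (SE, 0.10; edgeR adjusted p = 0.0779) in Nt+/+ mice and 0.23 (SE, 0.11; edgeR adjusted p = 0.13) in Nt-/- mice. It passed under 4 of the 9 alternative settings in Nt+/+ mice and under 2 in Nt-/- mice. Myd88 shares 290 of its 2576 exon bases with Acaa1a, a peroxisomal thiolase gene on the other strand. Acaa1a rose from 74.2 ± 5.67 to 130.2 ± 19.5 CPM in Nt+/+ mice (edgeR adjusted p = 6.74e-06) and from 74.5 ± 9.97 to 150.1 ± 4.41 CPM in Nt-/- mice (adjusted p = 1.27e-06). With the strand setting not given, the part of its reads in the Myd88 values was not tested.

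Crypt preparations are bulk samples, in which fewer cells of a type and less RNA per cell cannot be told apart. Cd14, Ly96, Tlr2, and Tlr4 are also myeloid genes. Of 14 myeloid markers, 7 passed the filter on low counts, and Itgam, an integrin of myeloid cells and of some lymphocytes, was lower in fasted mice of both genotypes (log2 fold change, -0.83, adjusted p = 0.000146, in Nt+/+ and -0.54, adjusted p = 0.00653, in Nt-/-; edgeR). No other myeloid marker passed in either comparison, beside 21.6% and 25.2% of all genes called, and none passed between genotypes. The summed level of the 14 markers ranged from 60.0 to 81.7 CPM in fed Nt+/+ mice, from 52.8 to 77.0 CPM in fed Nt-/- mice, from 46.1 to 87.6 CPM in fasted Nt+/+ mice, and from 55.9 to 74.2 CPM in fasted Nt-/- mice, and Ptprc and Itgam made up most of it. In Nt+/+ mice 4 of 5 fasted mice, at 46.1 to 54.9 CPM, lay below all fed mice, and mouse 4, at 87.6 CPM, lay above them. Fasted and fed Nt-/- mice overlapped. Ptprc, at 37.8 CPM on average, is also expressed by lymphocytes, so this sum is not of myeloid cells alone. Fasted Nt+/+ mouse 4 also had the highest summed level of lymphocyte markers of any mouse, 98.2 CPM. Of the 14 markers 7 were above 0 in every mouse, among them Lyz2 (4.39 CPM on average), Itgax (3.36), Cd68 (1.67), Csf1r (1.05), and Tyrobp (0.864). The other 7 were at 0 in at least 2 mice, and of these Cd163, Fcgr1, S100a8, and S100a9 had at most 2 counts in any mouse, Csf3r at most 4, Adgre1 at most 7, and Cx3cr1 at most 9. The part of myeloid cells in the values of Cd14, Ly96, Tlr2, and Tlr4 was not tested.

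Villus enterocyte markers moved with diet. Of 9 such genes, 7 rose in fasted Nt+/+ mice and all 9 in fasted Nt-/- mice, among them Fabp1, the fatty acid binding protein, by 2.09 and 2.05 on the log2 scale. Their sum was between 4408 and 9614 CPM in fed Nt+/+ mice, 6853 and 10033 CPM in fed Nt-/- mice, 9492 and 18891 CPM in fasted Nt+/+ mice, and 16720 and 22365 CPM in fasted Nt-/- mice. The crypt genes Mki67, a marker of dividing cells, and Olfm4, of stem cells, were lower in fasted mice of both genotypes, 2 of 8 crypt markers. Of 7 Paneth cell markers only Defa17 passed, lower in fasted Nt-/- mice, and of 6 enteroendocrine and tuft cell markers only Chga, higher in fasted mice of both genotypes. None of 8 lymphocyte markers or of the 7 stromal and endothelial markers tested of 11 passed. Of all genes tested, 11.2% were higher and 10.4% lower in fasted Nt+/+ mice, and 12.5% and 12.6% in fasted Nt-/- mice. The part of these shifts in the changes of Ly96, Tlr2, Tlr3, and Tlr5 was not tested.

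**Figure D4:**
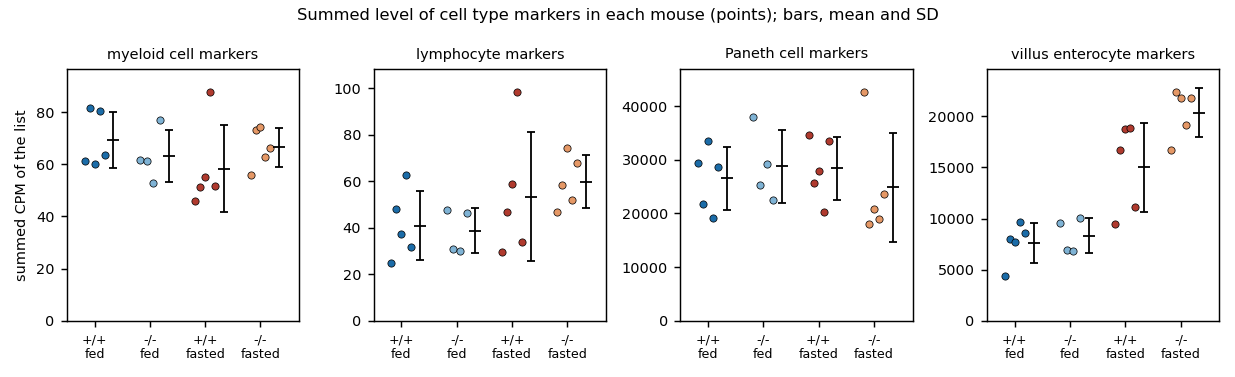
Summed CPM of cell type marker lists in each mouse (points) with the mean and SD of each group (bars), for 4 lists. Of 5 fasted Nt+/+ mice 4 lie at 46.1 to 54.9 CPM of the myeloid marker sum, below all fed Nt+/+ mice, and 1 at 87.6 CPM, whereas villus enterocyte marker sums lie between 16720 and 22365 CPM in fasted Nt-/- mice, above all fed mice. The myeloid sum includes Ptprc, which lymphocytes also express.

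The other genes of the pathway were followed in the 2 comparisons of diet, from lists of receptors, partners, adaptors, sensors, and targets. None of them passed between genotypes or in the difference between the effects of fasting, by edgeR. Of 8 other Toll-like receptors 3 could be tested, and Tlr1, the partner of TLR2, fell in both genotypes, from 11.4 ± 1.0 to 3.06 ± 0.80 CPM in Nt+/+ mice (log2 fold change, -1.89; edgeR adjusted p = 2.21e-06) and from 8.48 ± 1.4 to 2.58 ± 0.86 CPM in Nt-/- mice (-1.70; adjusted p = 1.24e-05). Tlr6, the other partner of TLR2, had at most 17 counts per mouse and was not tested, nor were Tlr7, Tlr8, Tlr11, and Tlr13.

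Of 7 receptor partners and chaperones, 1 rose and 1 fell in each genotype, beside 21.6% and 25.2% of all genes called in either direction. Cd36, a fatty acid transporter that also serves as a partner of TLR2, rose from 15.0 ± 6.6 to 45.2 ± 19 CPM in Nt+/+ mice (log2 fold change, 1.59; edgeR adjusted p = 0.00219) and from 17.2 ± 8.9 to 78.7 ± 17 CPM in Nt-/- mice (2.19; adjusted p = 0.000247). Hsp90b1, the endoplasmic reticulum chaperone that folds Toll-like receptors, fell by 0.40 on the log2 scale in Nt+/+ mice and by 0.35 in Nt-/- mice (edgeR adjusted p = 0.0168 and 0.0444). The median log2 fold change of these 7 genes was -0.17 in Nt+/+ and -0.16 in Nt-/- mice.

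Among 22 tested adaptors and kinases downstream of the receptors, 2 rose and 4 fell in Nt+/+ mice, and 6 rose and 4 fell in Nt-/- mice, beside 21.6% and 25.2% of all genes in either direction, with medians of 0.04 and 0.06. Irak4, the kinase that MyD88 recruits, fell by 0.46 in Nt+/+ and by 0.52 in Nt-/- mice on the log2 scale, and Ube2n, the ubiquitin-conjugating enzyme used by TRAF6, fell by 0.49 and by 0.41. Ikbke, a kinase that activates interferon regulatory factors, fell by 0.41 and by 0.52, and Irf3, the factor downstream of TLR3, fell by 0.30 and by 0.52. Traf6, the ubiquitin ligase downstream of the IRAK kinases, rose by 0.35 and by 0.29, and Tab2, a partner of the kinase TAK1, rose by 0.24 and by 0.29.

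Of 13 tested NOD-like receptors and inflammasome genes, 6 fell and none rose in Nt+/+ mice, beside 10.4% lower and 11.2% higher of all genes, with a median of -0.27. In Nt-/- mice 5 fell and 2 rose, beside 12.6% and 12.5%, with a median of -0.12. Nlrc4, which assembles an inflammasome on bacterial flagellin or secretion proteins, fell from 109 ± 7.3 to 87.4 ± 4.1 CPM in Nt+/+ mice and from 104 ± 5.2 to 83.3 ± 4.4 CPM in Nt-/- mice, and Naip2, which binds the bacterial protein for NLRC4, fell by 0.38 and by 0.35 on the log2 scale. Casp1, the inflammasome protease, fell by 0.30 in Nt+/+ mice and did not pass in Nt-/- mice (log2 fold change, -0.12; edgeR adjusted p = 0.201). Casp4, which binds lipopolysaccharide in the cytosol, rose in Nt-/- mice from 14.5 ± 3.5 to 26.6 ± 8.6 CPM (log2 fold change, 0.87; edgeR adjusted p = 0.00385). In Nt+/+ mice it was at 22.1 ± 4.1 CPM when fed and 23.8 ± 3.1 CPM when fasted (0.11; edgeR adjusted p = 0.74).

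Of 10 tested negative regulators, 2 were higher and 1 lower in Nt+/+ mice and 2 higher in Nt-/- mice, shares near the 21.6% and 25.2% of all genes called. Tollip, an inhibitor of IRAK kinases, rose by 0.27 and by 0.32 on the log2 scale, Irak3 rose by 0.49 and the deubiquitinase gene Cyld fell by 0.30 in Nt+/+ mice, and Tnip1 rose by 0.54 in Nt-/- mice. Of 6 tested genes of lipopolysaccharide handling, 2 rose in Nt+/+ mice, and 1 rose and 1 fell in Nt-/- mice, beside the same shares of all genes. Alpi, the intestinal alkaline phosphatase, which detoxifies lipopolysaccharide and is also a villus enterocyte marker, rose from 188 ± 34 to 286.7 ± 64 CPM in Nt+/+ mice and from 218.4 ± 56 to 389.8 ± 47 CPM in Nt-/- mice. Abca1, a lipid exporter, rose by 0.85 on the log2 scale in Nt+/+ mice, and Akp3, another alkaline phosphatase, fell by 1.14 in Nt-/- mice.

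Of 25 NF-kB target genes 12 could be tested, and the inflammatory genes Cxcl1, Cxcl2, Il6, and Il1b, each with at most 4 counts per mouse, could not. In Nt+/+ mice 1 rose and 2 fell, with a median of -0.01, and in Nt-/- mice 3 rose, with a median of 0.30. These counts of 3 of 12 lie near the 21.6% and 25.2% of all genes called. Cxcl16, a chemokine, rose from 4.38 ± 0.85 to 10.4 ± 4.2 CPM in Nt+/+ mice and from 4.12 ± 0.091 to 15.1 ± 6.0 CPM in Nt-/- mice (edgeR adjusted p = 0.00262 and 0.000143). Tnf, the cytokine, fell from 1.37 ± 0.43 to 0.432 ± 0.17 CPM in Nt+/+ mice (edgeR adjusted p = 0.00781), and Zc3h12a, an RNase that degrades cytokine mRNA, fell by 0.67 on the log2 scale. In Nt-/- mice both were also lower without passing (log2 fold change, -1.21 and -0.35; edgeR adjusted p = 0.0722 and 0.144). Ccl5, a chemokine of T cells, and Birc3, an inhibitor of apoptosis, rose by 1.13 and by 0.27 in Nt-/- mice. In Nt+/+ mice neither passed, with log2 fold changes of 0.76 and -0.06 (edgeR adjusted p = 0.138 and 0.684).

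**Figure D5:**
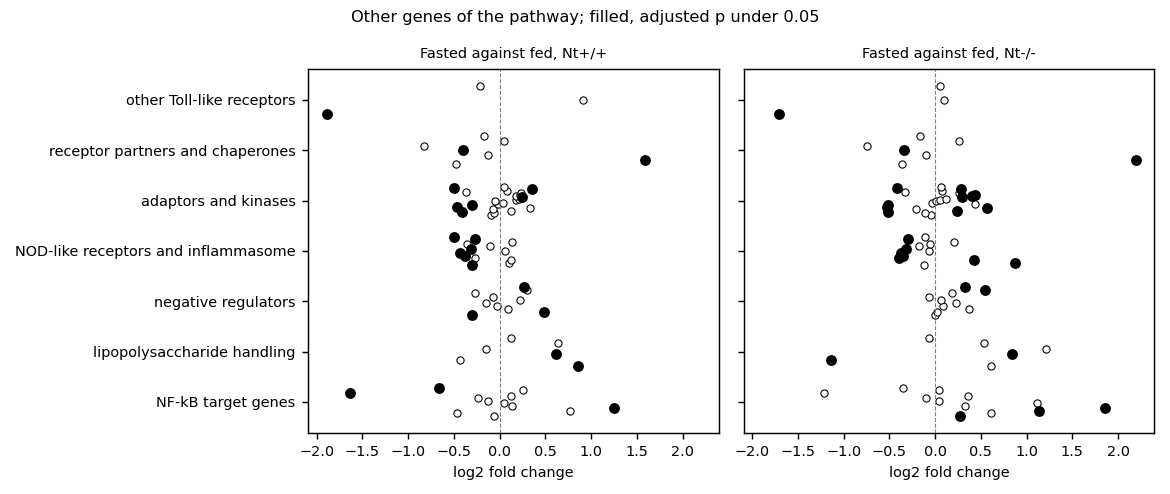
Log2 fold changes of tested pathway genes (points) in 7 lists for fasted against fed mice of each genotype; filled points had an adjusted p under 0.05. Tlr1 lies at -1.89 and -1.70 and Cd36 at 1.59 and 2.19, and the NOD-like receptor list has 6 filled points below 0 in Nt+/+ mice.

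The genes most like Cd14 in log2 CPM over the 19 mice, of 14943 with a mean of at least 1 CPM, were Pla2g5, a secreted phospholipase (Pearson r, 0.89), Ceacam10 (0.81), Rassf4 (0.81), Dmbt1, a secreted mucosal protein that binds bacteria (0.78), and Pxdn (0.78). Spearman's rho was 0.76, 0.69, 0.77, 0.74, and 0.67 in the same order. After subtraction of group means, r was 0.80, 0.63, 0.69, 0.76, and 0.67. Without the 2 mice farthest from the median of Cd14, Pearson r was 0.83, 0.69, 0.73, 0.60, and 0.62. These values are descriptions of 19 libraries that share their groups and depth range. Pla2g5 was at 14.6 CPM in fed Nt+/+, 7.95 in fed Nt-/-, 11.2 in fasted Nt+/+, and 7.99 in fasted Nt-/- mice on average, the same order of groups as Cd14, although its 2 Nt-/- means lay close together.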

How the data were processed

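Crypt RNA of 19 mice was measured, 1 ribosomal RNA-depleted single-end library each. The authors trimmed reads (Trimmomatic 0.39), mapped them to Ensembl release 100 transcripts of GRCm38 with RSEM, and deposited per gene the expected count, which is not normalized, and TPM, which is scaled to transcript length and depth. The deposited effective length, in bases, served only to describe genes, and FPKM was not used. Strand setting and RSEM version are not given in the sources used here.

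Expected counts were rounded and scaled by TMM, and 17875 genes passing filterByExpr were fitted with edgeR 4.0.16 (R 4.3.3, limma 3.58.1), with 1 coefficient for each of 4 groups and 15 residual degrees of freedom. Adjusted p values are Benjamini-Hochberg values over all genes tested, with 0.05 as the threshold. The SE is the absolute log2 fold change over the square root of F. CPM uses TMM library sizes. Coordinates are from GENCODE M21 (GRCm38), which gave 55141 of 55487 gene IDs a symbol. The script was tested on simulated data.

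The 9 genes, the lists, and the marker lists were chosen with earlier results of these data known. Named genes are the 9, Nts, up to 3 called genes with the smallest p in each list and comparison of diet, and the 5 genes most like Cd14; genes named because they could not be tested, the myeloid markers named by level, Traf6, Tab2, and Acaa1a and Gm45542, which share exon bases with a listed gene, were added after their values were seen. Alternatives were upper quartile normalization, DESeq2 1.42.0, no filter or 10 counts in every mouse, a block for either replicate number, sex as a covariate (18 mice, without the mouse with no sex label), the mouse with disagreeing labels regrouped, only the groups compared, and each mouse left out.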

Additional observations from a re-analysis of the deposited data

Results flagged for a closer look

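In 36 checks of single mice, 1 for each of the 9 genes in each of 4 groups, 2 values stood apart from the rest of their group by Dixon's test, where chance marks about 1 in 20. Both belonged to replicate 3 of the fasted Nt+/+ mice. Its Tlr5 level was 1.18 CPM, against 2.86 to 3.21 CPM in the other 4 mice. Its Nod2 level was 4.12 CPM, against 1.50 to 1.77 CPM in the other 4 mice. Without this mouse the log2 fold change of Tlr5 in fasted Nt+/+ mice was 1.20 (edgeR adjusted p = 0.00050) and that of Nod2 was -0.78 (edgeR adjusted p = 0.0523).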

How the results depend on the processing

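For the 8 tested genes in 5 comparisons, 327 of 345 fold changes under 9 alternatives kept their direction and side of the threshold, as did 711 of 760 with 1 mouse left out. Counts for the difference of fasting effects stayed at 0. With no filter, sex as a covariate, the regrouped mouse, or only the groups compared, Tlr2 in fasted Nt+/+ mice had adjusted p from 0.0543 to 0.0721, and it was also lost without any 1 of 12 mice (highest, 0.124, without fasted Nt+/+ mouse 4). DESeq2 called 1 of the 8 genes (Cd14) between genotypes in fed mice, and 3 genes in all in fed and 101 in fasted mice. The strict filter and the regrouped mouse each gave 0 in both with edgeR, whose main fit called only Nts. The strict filter left Nts untested, since Nt-/- mice had as few as 3 counts of it. Regrouping put a mouse with 5.43 CPM of Nts among the fasted Nt-/- mice. No gene thus passed between genotypes in these fits, and none but Nts in the main fit. For Cd14 in fed mice the edgeR adjusted p with 1 mouse left out ranged from 0.254 to 1. Myd88 in fasted Nt+/+ mice passed with upper quartile normalization (adjusted p = 0.0400) and with 10 counts in every mouse (0.0494). With DESeq2, Myd88 between fasted genotypes was 0.00897. Beyond the loss of Nts to the strict filter, the cause of these changes was not tested.

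With 1 mouse left out, 3 to 4 of the 8 genes passed in fasted Nt+/+ and 0 to 2 in fasted Nt-/- mice, and none between genotypes. Genes called in all ranged from 3022 to 3973, from 3442 to 4757, from 1 to 1 (fed genotypes), and from 1 to 4 (fasted genotypes). Log2 fold changes that crossed 0 in these fits, none with an adjusted p under 0.05, ranged for Lbp from -0.28 to 0.23 (fasting, Nt+/+) and -0.40 to 0.12 (fed genotypes), for Nod2 from -0.079 to 0.28 (fasting, Nt-/-), for Tlr3 from -0.10 to 0.058 (fed genotypes), for Tlr2 from -0.16 to 0.23 (difference of effects), and for Myd88 from -0.034 to 0.086 (fed genotypes), -0.046 to 0.067 (fasted genotypes), and -0.088 to 0.040 (difference). Tlr4 passed the filter without fed Nt-/- mouse 2 (log2 fold change, -1.92 in fasted Nt+/+ mice; adjusted p = 0.0311). Tlr2 in fasted Nt-/- mice passed without fed mouse 2 (adjusted p = 0.0355) or fasted mouse 1 (0.0365), and Myd88 without fed mouse 1 in Nt+/+ (0.0413) or fasted mouse 3 in Nt-/- (0.0469).

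The numbers in titles and in file names were each run as a replicate block. Deviations from group means correlated in same-numbered pairs (mean r, 0.184 and 0.227), with 19 and 24 of 27 pairs over 0.1. In differently numbered pairs mean r was -0.046 and -0.056, with 17 and 12 of 108 pairs over 0.1. Of 19 mice, 14 and 18 correlated best with their own number. The paper states that control mice were littermates matched for sex and age, but no label says what the numbers mark. The main fit leaves this pairing out. With either replicate block 3 of the 8 genes passed in fasted Nt-/- mice (Myd88, Tlr2, Tlr3), and Myd88 passed in Nt+/+ mice (edgeR adjusted p = 0.0230 and 0.0184). Genes called in all in fasted Nt-/- mice also varied, from 3670 to 5672 over the 9 alternatives, against 4499 in the main fit. With the block, Lbp in fasted Nt+/+ mice was 0.00407 (titles), and with that of the file names Nod2 in fasted Nt-/- mice was -0.14, and Lbp was 0.041 and Nod2 0.025 between fed genotypes. Depth limits Tlr4 and Lbp, at 17 counts or fewer.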
